A study of Mus musculus with 6 samples.

Results

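Secreted angiogenic factors were examined in hypoxic and normoxic pancreatic stellate cells (PSCs), fibroblast precursors of the pancreas. They were chosen by name as 10 genes of 3 kinds: the VEGF family (Vegfa, Vegfb, Vegfc, Vegfd and Pgf), the angiopoietins with angiopoietin-like 4 (Angpt1, Angpt2, Angpt4 and Angptl4), and adrenomedullin (Adm). All 10 were found by their Ensembl identifiers among the 55426 features of the deposited table, and all 10 passed the filter on low counts. The primary PSC lines came from the pancreas of wild-type C57BL/6 mice aged 8 to 12 weeks, at passages 2 to 4. They were embedded in Matrigel in a transwell insert above organoids of mT3, a PDAC cell line from a KPC mouse, and kept for 48 h at 21% O2 (3 samples) or 1% O2 (3 samples). Both groups had tumor organoids beneath them, so the comparison is of oxygen within the coculture, and a 1% O2 atmosphere reached PSCs and tumor cells alike. PSCs cultured alone were not analysed here.

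VEGF family ligands are secreted dimers that act on receptor tyrosine kinases of blood and lymphatic endothelium. VEGF-A drives the sprouting of blood vessels through Flt1 and Kdr, VEGF-B and placental growth factor bind Flt1, and VEGF-C and VEGF-D bind Flt4, the receptor of lymphatic vessels. Angiopoietins act on the receptor Tek, with Angpt1 as an agonist and Angpt2 as a context-dependent antagonist, and adrenomedullin is a vasodilator peptide that signals through Calcrl paired with a Ramp protein. Low oxygen stabilizes hypoxia-inducible factors (HIFs), and Vegfa and Adm are among their classical targets.

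At 1% O2, Vegfa, Vegfc, Pgf, Angptl4 and Adm rose, and Vegfb, Vegfd and Angpt1 fell. The fold changes ran from a 2.88-fold fall of Vegfd to a 230-fold rise of Pgf, and Vegfa, Angptl4 and Adm each rose between 4.03- and 4.42-fold. Angpt2 and Angpt4 did not pass the test, which asked for a linear fold change beyond 1.5 together with an adjusted p (edgeR's quasi-likelihood test over 16207 genes) under 0.05. So 8 of the 10 genes were called, 5 higher and 3 lower, where 34.2% of all tested genes were called, 18.9% higher and 15.3% lower. The median log2 fold change was 0.98 over the 10 genes and -0.00 over all tested genes. Samples of the 2 conditions did not overlap for 9 of the 10 genes, against 68.9% of all tested genes. Hypoxic samples lay above normoxic ones for 5 genes and below for 4, against 34.9% and 34% of all tested genes. The labels do not say whether replicates came from separate PSC lines, so p-values measure the spread between these samples, which may be technical. In bulk RNA, fewer cells of a type and less RNA per cell cannot be told apart.

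**Figure D1:**
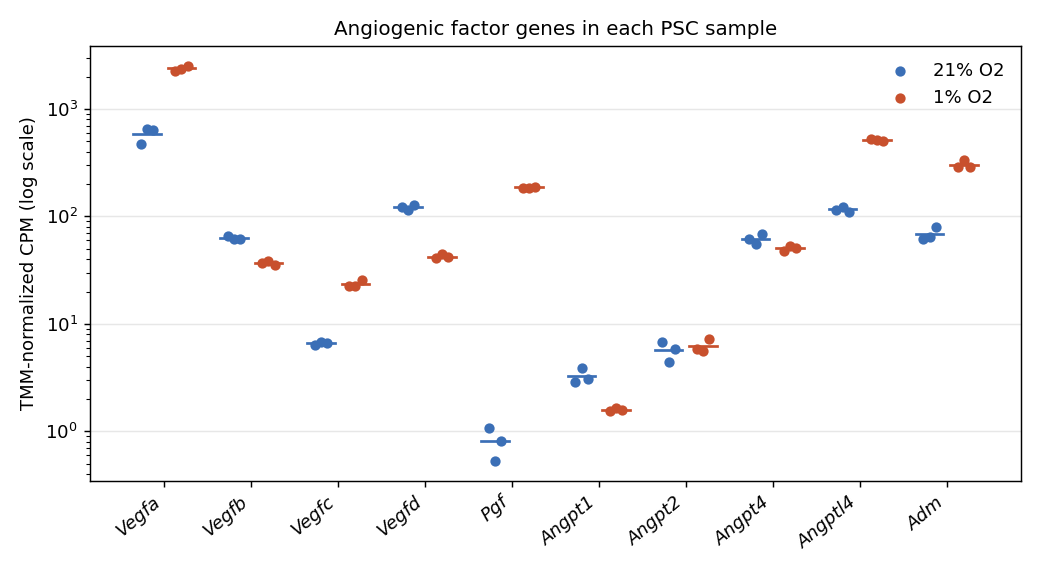
TMM-normalized CPM (log axis) of the 10 angiogenic factor genes in each PSC sample, with blue points for 21% O2, red points for 1% O2 and lines at the means of 3 samples. Points of the 2 conditions overlap only for Angpt2, and Pgf moves furthest, from about 1 CPM to between 185 and 188.

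The stretches before the transcription start of genes that rose and genes that did not are shown first, since HIFs bind a short core sequence in DNA. RefSeq starts on GRCm38.p6 were at hand for 7 of the 10 genes. Entries for Angpt1, Angpt2 and Angptl4 were missing. The 250 bases before the start were searched on both strands for the HIF core, spelled ACGTG or GCGTG. The sequences below run 5′ to 3′ on the strand of the gene and end at the base before the start, with each match in capitals (CACGT or CACGC where the match is on the opposite strand).
Vegfa, chr17:46032378-46032627, minus strand: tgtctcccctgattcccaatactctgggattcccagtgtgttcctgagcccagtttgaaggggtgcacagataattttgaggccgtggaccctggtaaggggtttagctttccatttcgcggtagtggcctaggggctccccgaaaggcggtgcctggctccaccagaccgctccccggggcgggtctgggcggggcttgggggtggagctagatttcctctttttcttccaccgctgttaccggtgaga
Adm, chr7:110627407-110627656, plus strand: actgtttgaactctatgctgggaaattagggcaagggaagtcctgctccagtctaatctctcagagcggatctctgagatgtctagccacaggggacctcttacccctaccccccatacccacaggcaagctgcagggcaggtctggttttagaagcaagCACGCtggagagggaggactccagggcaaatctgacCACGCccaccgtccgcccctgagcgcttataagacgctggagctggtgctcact
Vegfc, chr8:54077282-54077531, plus strand: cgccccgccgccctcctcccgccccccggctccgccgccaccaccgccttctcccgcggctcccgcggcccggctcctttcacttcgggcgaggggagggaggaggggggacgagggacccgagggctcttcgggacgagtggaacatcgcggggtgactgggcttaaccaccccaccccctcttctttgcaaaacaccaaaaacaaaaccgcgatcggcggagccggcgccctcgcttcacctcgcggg
Vegfb, chr19:6987652-6987901, minus strand: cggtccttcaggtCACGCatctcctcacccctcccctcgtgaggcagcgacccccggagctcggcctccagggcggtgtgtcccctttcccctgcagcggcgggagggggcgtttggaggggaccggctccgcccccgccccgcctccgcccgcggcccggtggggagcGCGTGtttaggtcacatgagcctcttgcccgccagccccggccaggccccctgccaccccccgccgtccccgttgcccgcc
Angpt4, chr2:151910957-151911206, plus strand: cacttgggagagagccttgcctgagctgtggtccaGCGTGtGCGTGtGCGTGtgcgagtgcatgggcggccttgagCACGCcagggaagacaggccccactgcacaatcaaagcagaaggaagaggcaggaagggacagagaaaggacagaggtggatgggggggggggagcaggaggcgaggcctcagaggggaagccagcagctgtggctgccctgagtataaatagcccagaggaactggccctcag
Vegfa, Adm and Vegfc rose at 1% O2, Vegfb fell and Angpt4 was not called. Adm held 2 matches, GCGTG on the opposite strand from 90 to 86 and from 54 to 50 bases before the start. Neither Vegfa nor Vegfc held a match in this window, whereas Vegfb held 2 and Angpt4 held 4, of which 3 lie on the strand of the gene between 215 and 199 bases before the start. The 2 spellings did not overlap each other in any of these windows. At least 1 match stood in 38.6% of all 32851 such stretches in the table, at least 2 in 16.7% and at least 4 in 2.6%. The windows of Pgf and Vegfd, and that of an internal start of Vegfa, lie partly or wholly in annotated exons and are not printed. They held 1 match at the outer start of Pgf, 0 at its inner start, 0 in Vegfd and 2 at the internal Vegfa start. These letters were thus present and absent in windows of genes that rose and of genes that did not. Bases outside these windows were not searched, so a gene without a match here may hold one elsewhere.

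Among the VEGF ligands, Vegfa had the highest RNA level per length in every sample. Vegfa (ENSMUSG00000023951; chromosome 17 of GRCm38, 46016993 to 46032369, minus strand) encodes VEGF-A, the main growth signal of blood vessels. It stood at 473, 656 and 644 CPM in normoxic replicates 1, 2 and 3 and at 2270, 2353 and 2528 CPM in hypoxic replicates. CPM, the unit used throughout, are counts scaled to a common library size after TMM normalization. Every hypoxic sample lay above every normoxic one, and the lowest normoxic value was that of replicate 1. The log2 fold change was 2.01 (SE 0.12, adjusted p = 1.62e-06 from edgeR). CPM per kilobase of exon lets genes be compared, as far as the length assigned to each gene holds. By this scale Vegfa moved from rank 300 to rank 52 of 16194 genes. Counts per gene do not resolve the splice forms of Vegfa.

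Pgf (ENSMUSG00000004791; chromosome 12, 85166635 to 85177790, minus strand) encodes placental growth factor, a ligand of Flt1. Its RNA gave 28, 14 and 20 counts at 21% O2 and 4714, 5821 and 5978 counts at 1% O2. These were 1.08, 0.531 and 0.811 CPM against 185, 186 and 188 CPM, with no overlap between the groups. Pgf was near the limit of detection at 21% O2, where 3 counts correspond to about 0.116 CPM, and was a well-expressed gene at 1% O2. Its log2 fold change of 7.84 (SE 0.13, adjusted p = 2.49e-09 from edgeR) ranked 15 from the top among all tested genes. Per kilobase it moved from rank 14475 to rank 718 of 16194 genes.

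Vegfc and Vegfd, both ligands of Flt4, moved in opposite directions. Vegfc (ENSMUSG00000031520; chromosome 8, 54077606 to 54187096, plus strand) was at 6.39, 6.79 and 6.69 CPM in normoxic and 22.7, 22.5 and 25.5 CPM in hypoxic samples, a log2 fold change of 1.83 (SE 0.09, adjusted p = 4.01e-07 from edgeR). Vegfd (ENSMUSG00000031380; chromosome X, 164373378 to 164402650, plus strand) was at 121, 115 and 129 CPM in normoxic and 40.6, 44.4 and 41.8 CPM in hypoxic samples, a log2 fold change of -1.52 (SE 0.06, adjusted p = 1.81e-07 from edgeR). Neither gene had overlapping groups, and replicates of one condition lay close together. Summed per kilobase, the pair was at 53.2 ± 2.997 CPM per kb at 21% O2 and 27.2 ± 0.914 at 1% O2 (SD, n = 3 each), 1.96-fold lower at 1% O2. Vegfd made up 94.9% ± 0.362 of that sum at 21% O2 and 64.6% ± 2.11 at 1% O2 (SD, n = 3 each). The RNA for Flt4 ligands was thus lower in sum at 1% O2 although Vegfc rose.

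Vegfb (ENSMUSG00000024962; chromosome 19, 6982473 to 6987651, minus strand), the other ligand of Flt1 alone, was at 65.7, 61.1 and 62.1 CPM in normoxic and 37.1, 38.1 and 35.2 CPM in hypoxic samples. It fell by 0.78 on the log2 scale (SE 0.06, adjusted p = 5.16e-06 from edgeR), a 1.71-fold change with groups that did not overlap. Pgf made up 0.698% ± 0.211 of the summed level per kilobase of Pgf and Vegfb at 21% O2 and 73.7% ± 0.893 at 1% O2 (SD, n = 3 each). The summed level of this pair was 39.5 ± 1.60 CPM per kb at 21% O2 and 87.1 ± 0.547 at 1% O2 (SD, n = 3 each). The sums of these ligand pairs were formed with the values of their members known and are given without a test.

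Over the whole VEGF family the summed level was 231 ± 22.5 CPM per kb at 21% O2 and 671 ± 31.3 at 1% O2 (SD, n = 3 each). These sums and shares are a description without a test. Vegfa made up 59.5% ± 4.93 of it at 21% O2 and 82.9% ± 0.715 at 1% O2 (SD, n = 3 each). The share of Vegfd went from 22.05% ± 2.48 to 2.62% ± 0.155, that of Vegfb from 17.2% ± 2.44 to 3.43% ± 0.27, and that of Pgf from 0.124% ± 0.0535 to 9.58% ± 0.369 (SD, n = 3 each). Vegfc stayed a small part, at 1.18% ± 0.0846 and 1.43% ± 0.0477 (SD, n = 3 each). From the most to the least abundant per kilobase, the order at 21% O2 was Vegfa, Vegfd, Vegfb, Vegfc and Pgf. At 1% O2 it was Vegfa, Pgf, Vegfb, Vegfd and Vegfc. Neighbours in either order did not overlap between samples. Vegfd and Vegfb were at 47.6 to 53.6 and 38.1 to 40.9 CPM per kb in normoxic samples, and at 16.9 to 18.4 and 21.95 to 23.7 in hypoxic samples, so the order of this pair turned.

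**Figure D2:**
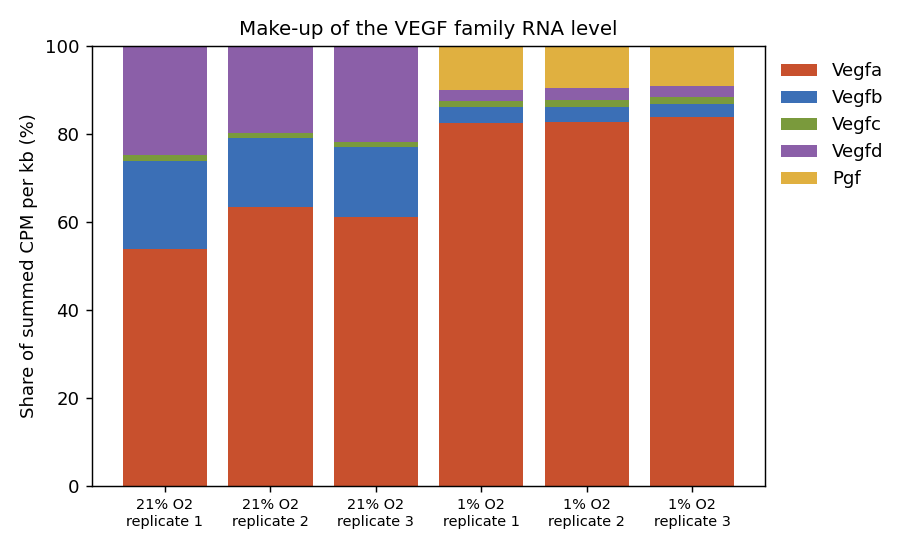
Share (%) of each VEGF family gene in the summed CPM per kilobase of exon, with 1 bar per PSC sample, 3 at 21% O2 on the left and 3 at 1% O2 on the right. Vegfa takes 53.9% to 63.3% of the bar at 21% O2 and 82.4% to 83.8% at 1% O2, where Pgf replaces Vegfd and Vegfb as the next largest part.

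Ratios of counts within a sample (0.5 added to each count) do not depend on library scaling, and 4 of them were compared. The log2 ratio of Vegfa to Vegfb was 3.21 ± 0.319 at 21% O2 and 6.02 ± 0.129 at 1% O2 (SD, n = 3 each), a 6.97-fold change of the ratio. The log2 ratio of Pgf to Vegfa went from -9.52 ± 0.736 to -3.68 ± 0.068 (SD, n = 3 each), so Pgf rose 57.5-fold more than Vegfa. Vegfa and Vegfc moved almost in parallel, with a log2 ratio of 6.46 ± 0.219 and 6.66 ± 0.0406 (SD, n = 3 each). In that ratio normoxic replicate 1 was at 6.21 and the other 5 samples between 6.58 and 6.71. For all 4 ratios the hypoxic samples lay above the normoxic ones, and the exact permutation test (two-sided, 20 splits) gave p = 0.1 for each, which is the smallest value this design allows, with an adjusted p of 0.1 over the 4 ratios.

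**Figure D3:**
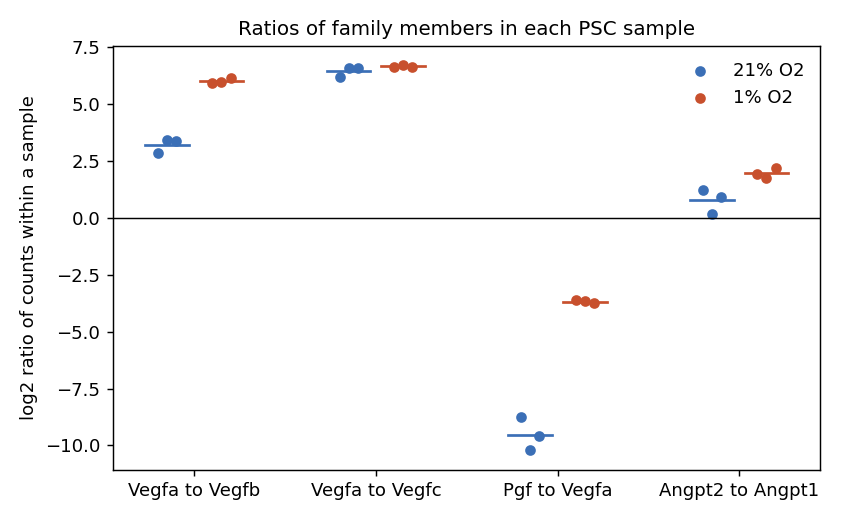
Log2 ratio of counts of 2 family members within each PSC sample, with blue points for 21% O2, red points for 1% O2 and lines at the means of 3 samples. The Vegfa to Vegfc ratio differs by 0.20 between the means, and the Pgf to Vegfa ratio by 5.85.

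The angiopoietins did not follow the VEGF ligands that rose. Angpt4 (ENSMUSG00000027460; chromosome 2, 151911210 to 151945337, plus strand), a ligand of Tek, was the most abundant of the 3 per length, with 61.1, 55.9 and 69.0 CPM in normoxic and 47.3, 53.3 and 51.0 CPM in hypoxic samples. Its groups did not overlap, and its log2 fold change of -0.29 (SE 0.08, adjusted p = 0.0123 from edgeR) was below the fold threshold. Angpt1 (ENSMUSG00000022309; chromosome 15, 42424723 to 42676977, minus strand), the Tek agonist, was low throughout, at 74, 102 and 76 counts in normoxic and 39, 52 and 50 in hypoxic samples. It fell by 1.04 on the log2 scale (SE 0.19, adjusted p = 0.00124 from edgeR) with no overlap between groups. Exons of Angpt1 share 737 bases with an antisense gene, Gm17473, which itself had 1 count in 1 of the 6 samples. The strand setting of the counting is not given in the sources used here.

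Angpt2 (ENSMUSG00000031465; chromosome 8, 18690263 to 18741562, minus strand), the angiopoietin that opposes Angpt1 at Tek in many settings, had overlapping groups. It was at 6.74, 4.403 and 5.88 CPM in normoxic and 5.89, 5.58 and 7.26 CPM in hypoxic samples, and its log2 fold change was 0.14 (SE 0.18, adjusted p = 0.512 from edgeR). Without normoxic replicate 2, its lowest sample, the log2 fold change was -0.02. The log2 ratio of Angpt2 to Angpt1 was 0.78 ± 0.54 at 21% O2 and 1.96 ± 0.229 at 1% O2 (SD, n = 3 each), a 2.25-fold change of the ratio.

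Angptl4 and Adm rose by about as much as Vegfa. Angptl4 (ENSMUSG00000002289; chromosome 17, 33773750 to 33781830, minus strand) encodes a secreted inhibitor of lipoprotein lipase that also acts on vessel permeability. It was at 116, 122 and 111 CPM in normoxic and 521, 516 and 500 CPM in hypoxic samples, a log2 fold change of 2.14 (SE 0.06, adjusted p = 3.11e-08 from edgeR). Adm (ENSMUSG00000030790; chromosome 7, 110627661 to 110629820, plus strand) was at 62.0, 64.0 and 80.3 CPM in normoxic and 286, 334 and 291 CPM in hypoxic samples, a log2 fold change of 2.14 (SE 0.11, adjusted p = 4.82e-07 from edgeR). Neither gene overlapped between groups. Per kilobase, Angptl4 moved from rank 1566 to 270 and Adm from rank 1194 to 213 of 16194 genes, which put both above Pgf and below Vegfa at 1% O2.

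**Figure D4:**
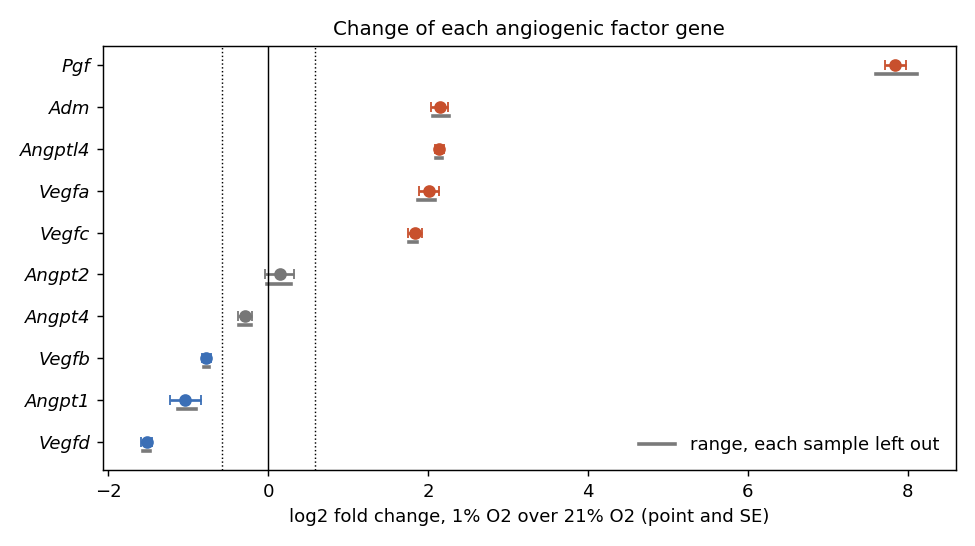
Log2 fold change of each angiogenic factor gene at 1% O2 over 21% O2 from edgeR, with points and SE bars in red for genes called higher, blue for genes called lower and grey for genes not called, dotted lines at a linear fold change of 1.5, and dark grey bars for the range with each sample left out in turn. Only the bar of Angpt2 crosses 0, from -0.02 to 0.28.

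Receptors of these ligands were examined as a list of 12 genes, all of which could be tested. In it 4 genes were called higher and 4 lower, where 18.9% of all tested genes were called higher and 15.3% lower, and the median log2 fold change was 0.03. Flt1, the receptor of VEGF-A, VEGF-B and placental growth factor, rose from 20.2 ± 2.88 to 43.4 ± 3.31 CPM (SD over 3 samples), with a log2 fold change of 1.11 (SE 0.10, adjusted p = 2.2e-05 from edgeR). The neuropilins, coreceptors for VEGF ligands and semaphorins, moved apart. Nrp2 rose from 137 ± 0.635 to 230 ± 8.43 CPM and Nrp1 fell from 107 ± 3.39 to 51.6 ± 2.07 CPM (SD, n = 3 each), with log2 fold changes of 0.75 and -1.05. Per kilobase, Nrp1 and Nrp2 stood at 10.9 and 11.5 at 21% O2 and at 5.28 and 19.4 at 1% O2. The near-equal levels at 21% O2 rest on the summed exon lengths of 9785 and 11842 bases. The longest transcripts are 3645 and 6723 bases, so the level of 1 gene against the other depends on the length used.

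Kdr and Flt4, the main receptors of blood and lymphatic endothelium, were near the low end of detection. Kdr had 55, 40 and 67 counts in normoxic and 25, 51 and 35 in hypoxic samples, and its call as lower (log2 fold change -0.76, adjusted p = 0.0428 from edgeR) was lost with the replicate block (adjusted p = 0.059, or 0.105 with DESeq2), with a correction for GC content (adjusted p = 0.0502) and without either replicate 1 or either replicate 3, where the adjusted p was between 0.0814 and 0.165. Flt4 had 28 to 65 counts in normoxic and 61 to 95 in hypoxic samples and was not called, except without normoxic replicate 1, its highest normoxic sample, where the log2 fold change was 0.85 (adjusted p = 0.0304). It was 0.25 without normoxic replicate 2 and 0.52 with all samples. Tek, the angiopoietin receptor, rose from 5.14 ± 0.518 to 11.5 ± 2.70 CPM (SD over 3 samples), with a log2 fold change of 1.16 (SE 0.17, adjusted p = 0.000363 from edgeR), with 120 to 144 counts in normoxic and 239 to 455 in hypoxic samples. Its relative Tie1 and the phosphatase Ptprb had at most 54 and 100 counts in a sample and were not called, although Ptprb passed without normoxic replicate 2 (log2 fold change -1.21, adjusted p = 0.0119) and without the filter on low counts (-0.88, adjusted p = 0.0473). Without normoxic replicate 1, its highest sample, the log2 fold change of Ptprb was -0.24, against -0.85 with all samples.

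The adrenomedullin receptor genes also moved apart. Calcrl, the receptor chain, was at 43.2, 35.9 and 39.4 CPM in normoxic and 91.6, 95.0 and 90.9 CPM in hypoxic samples, a log2 fold change of 1.23 (SE 0.07, adjusted p = 1.1e-06 from edgeR). Ramp2, an accessory protein that turns Calcrl into an adrenomedullin receptor, had 523, 659 and 531 counts in normoxic and 115, 165 and 115 in hypoxic samples and fell by 2.32 on the log2 scale (SE 0.14, adjusted p = 1.76e-06 from edgeR). Its exons share 1103 bases with Vps25 on the same strand, so its counts are uncertain where reads could be split. Vps25 had a log2 fold change of -0.26 and was not called. Ramp1, which makes Calcrl a receptor for calcitonin gene-related peptide, fell by 0.66 on the log2 scale (adjusted p = 0.0192 from edgeR). That call was lost without hypoxic replicate 2 or 3 or normoxic replicate 3, with an adjusted p between 0.0503 and 0.0678, and with DESeq2 and the replicate block (adjusted p = 0.0602). Ramp3, also a part of adrenomedullin receptors, had at most 29 counts in a sample and was not called. With the ligand, the pattern was therefore a rise of Adm and Calcrl and a fall of Ramp2, with Ramp3 low and not called.

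**Figure D5:**
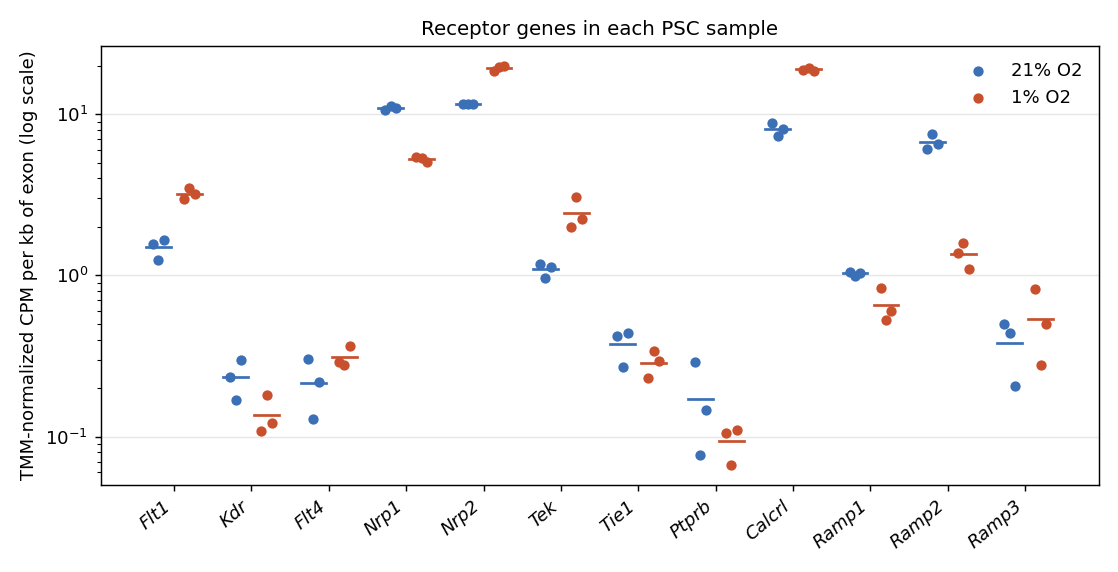
TMM-normalized CPM per kilobase of exon (log axis) of the 12 receptor genes in each PSC sample, with blue points for 21% O2, red points for 1% O2 and lines at the means of 3 samples. Nrp1 goes from 10.9 to 5.28 and Nrp2 from 11.5 to 19.4, and Calcrl goes from 8.09 to 18.9 and Ramp2 from 6.73 to 1.35. Distances between genes depend on the exon length used.

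Some receptors are also markers of endothelium, which the culture was not labelled to contain. Of 12 endothelial markers, 10 could be tested, of which Tek, Esam, Egfl7 and Vwf were called higher and Kdr and Cldn5 lower, where 34.2% of all tested genes were called. The defining markers Pecam1 and Cdh5 had 38 to 95 and 29 to 70 counts per sample, with log2 fold changes of -0.02 and -0.11, and neither was called. The summed level of the 12 markers was 22.1 to 29.3 CPM in normoxic and 33.5 to 45.5 CPM in hypoxic samples. The call of Esam was lost with the replicate block (adjusted p = 0.0571), with DESeq2 (adjusted p = 0.075) and without any 1 sample other than normoxic replicate 3. The call of Cldn5 was lost with DESeq2 and the replicate block (adjusted p = 0.0655), without hypoxic replicate 1 (adjusted p = 0.0514) and without normoxic replicate 3 (adjusted p = 0.0507). The part of endothelial RNA in the receptor values was not tested.

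Angptl4 acts on lipases, and 8 genes of that system were listed, of which 6 could be tested. By edgeR 0 were called higher and 3 lower (18.9% and 15.3% of all tested genes), with a median log2 fold change of -0.59, and DESeq2 and limma-voom gave the same counts. At an unadjusted p under 0.05 and any fold, 2 were higher and 3 lower, where 33.4% of all tested genes were higher and 33.1% lower. Lpl, the lipase that Angptl4 inhibits, fell from 4961 ± 368 to 3231 ± 158 CPM (SD over 3 samples), with a log2 fold change of -0.62 (SE 0.08, adjusted p = 0.00016 from edgeR). Without normoxic replicate 2 it was -0.58 and no longer past 1.5-fold. Lipg, the endothelial lipase, fell by 2.11 on the log2 scale from 2.25 ± 0.948 CPM (SD, n = 3). Pparg, the adipogenic nuclear receptor, fell by 1.996 from 72.3 ± 13.0 CPM (SD, n = 3), whereas its relative Ppard stood at 69.8 ± 4.06 and 83.9 ± 4.06 CPM (SD, n = 3 each) and was not called. Lpl and Pparg are also on the list of adipocyte markers, of which 6 of 6 were called lower, against 15.3% of all tested genes. The summed level of those markers was 5214 to 6896 CPM in normoxic and 3204 to 3510 CPM in hypoxic samples, most of it from Lpl. Adipoq, Plin1 and Fabp4 fell between 11.7- and 25.9-fold, and Cidec was at 3.69 to 11.5 CPM in normoxic samples and near the counting floor in hypoxic ones. The size of these falls leans on normoxic replicate 2, the highest sample for each. There Adipoq was at 78.2 CPM, against 26.8 and 30.6 in normoxic replicates 1 and 3, and Fabp4 at 1076 against 432 and 410. Among these markers Plin1, which coats lipid droplets, was at 180, 356 and 144 CPM in normoxic and 7.15, 11.8 and 7.10 CPM in hypoxic samples. Angptl4, which adipocytes also express, rose while these markers fell.

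The list of 20 related ligands held other angiopoietin-like proteins, peptides of the adrenomedullin family, and other growth factors and vasoactive peptides. It also held Pam, an enzyme of peptide amidation and not a ligand, which was tested and not called. Of the 20 genes, 15 could be tested. By edgeR 3 were called higher and 0 lower (18.9% and 15.3% of all tested genes), with a median log2 fold change of 0.20. The share of the list called higher was thus near that of all tested genes. DESeq2 and limma-voom also gave 3 and 0. At an unadjusted p under 0.05 and any fold, 6 were higher and 2 lower, where 33.4% of all tested genes were higher and 33.1% lower. Adm2, which encodes intermedin, a peptide that shares receptors with adrenomedullin, was at 3.97, 3.34 and 4.22 CPM in normoxic and 32.1, 32.9 and 31.5 CPM in hypoxic samples. Its log2 fold change of 3.07 (SE 0.10, adjusted p = 5.08e-08 from edgeR) was the largest of the list and lay above the 2.14 of Adm. Angptl6 rose from 2.66 ± 0.375 to 5.65 ± 0.79 CPM (SD, n = 3 each). Its exons share 265 bases with a gene on the opposite strand, A230050P20Rik, which had a log2 fold change of 0.82. Edn1, the vasoconstrictor endothelin 1, had overlapping groups at 5.04 to 7.42 and 6.60 to 13.4 CPM, and its call (log2 fold change 0.82, adjusted p = 0.018 from edgeR) was lost without normoxic replicate 1 or hypoxic replicate 2 or 3, where it was 0.70, 0.61 and 0.73. The abundant Angptl2 was at 1237 ± 87.2 and 1553 ± 79.7 CPM, and Apln, the ligand of the apelin receptor, at 548 ± 73.8 and 504 ± 16.8 CPM (SD, n = 3 each). Neither was called.

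A list of 16 genes held mainly secreted or intracellular inhibitors of angiogenesis. It also held Vash2, a relative of Vash1 that is not counted as an inhibitor (log2 fold change -0.08, not called). Of the 16, 14 could be tested, with 2 called higher, 3 lower and a median log2 fold change of 0.06. The share called, 5 of 14, was near the 34.2% of all tested genes. Col18a1, whose collagen chain is the source of endostatin, fell from 227 ± 3.94 to 96.5 ± 7.64 CPM (SD over 3 samples), with a log2 fold change of -1.23 (SE 0.06, adjusted p = 6.9e-07 from edgeR). Vash1, which encodes vasohibin 1, fell by 1.49 and Spry4, an inhibitor of receptor tyrosine kinase signaling, by 1.47 on the log2 scale. Col4a3, the source of tumstatin, had 4, 7 and 4 counts in normoxic and 37, 56 and 63 in hypoxic samples, and shares 563 exon bases with C430014B12Rik on the opposite strand. Sema3a, a semaphorin that binds Nrp1, rose from 2.66 ± 0.352 to 7.79 ± 2.78 CPM (SD, n = 3 each). The abundant Thbs1 and Serpinf1 had log2 fold changes of 0.29 and -0.23, under the fold threshold.

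The genes whose profile over the 6 samples was most like that of Vegfa, by the root mean square difference of centred log2 CPM, were Itga7 (0.0617), Slc25a37 (0.067) and Ppp1r3e (0.0798). For Pgf the nearest profiles were much less close, namely H2-Q2 (0.204), Sncb (0.556) and Aox4 (0.559), and their levels at 21% O2 were at most 0.17 CPM on average, where the log scale depends on the prior count.

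The libraries held 24749601 to 31925054 counts each. Markers of fibroblasts and stellate cells summed to 28087 to 35235 CPM in normoxic and 30300 to 35091 CPM in hypoxic samples, most of it from Col1a1, Col1a2 and Col3a1, which were not called. Of these 10 markers Pdpn and Pdgfra were called higher (log2 fold changes 0.99 and 0.82) and Lum lower (-2.17), a share near the 34.2% of all tested genes called. The epithelial markers Epcam and Cdh1 had at most 1 count in any sample. The 8 epithelial markers summed to 3.23 to 5.31 CPM at 21% O2 and 24.98 to 28.9 CPM at 1% O2, and Krt19 alone was called, with a log2 fold change of 4.94. Macrophage markers (6 of 10 called lower, against 15.3% of all tested genes) summed to 866 to 1524 and 446 to 790 CPM, pericyte markers to 43.4 to 57.0 and 47.0 to 70.2 CPM, and mesothelial markers to 20.6 to 28.9 and 40.6 to 42.1 CPM. The mesothelial sum was nearly all Wt1 (called higher, log2 fold change 0.76), whereas Msln, Upk3b and Lrrn4 had at most 16 counts in a sample, could not be tested and had lower means at 1% O2. The part of these other cells in the levels of the angiogenic factors was not tested.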

How the data were processed

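RNA-seq of PSCs cocultured with mT3 organoids was analysed in 3 normoxic and 3 hypoxic samples. Per the methods of the study, polyA-selected libraries were sequenced on a NovaSeq-6000, trimmed with Cutadapt, aligned with STAR 2.6.1b to GRCm38 and quantified with RSEM 1.3.1. The authors deposited expected counts per gene, all whole numbers. The annotation release and the strand setting are not given in the sources used here. Of 55426 features, 5 transgene features with 0 counts were left out, and 55240 of 55421 Ensembl identifiers were named from GENCODE M21. Depth was 24749601 to 31925054 counts per sample, and counting floors of 3 counts cover counting error only.

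Genes were filtered with filterByExpr, scaled by TMM and tested with the quasi-likelihood F test of edgeR 4.0.16 (R 4.3.3), with Benjamini-Hochberg adjustment over 16207 genes. Calls required a linear fold change beyond 1.5 and an adjusted p under 0.05. To obtain the SE, the size of the log2 fold change was divided by the root of the F statistic. CPM per kilobase used the summed exon length of the gene. Named from each list were its receptors, up to 3 called genes each way with the largest changes and the 2 most abundant tested genes. Vps25, Gm17473, A230050P20Rik and C430014B12Rik (overlapping genes), Vwf, Pecam1, Cdh5, Plin1, Adipoq, Cidec, Fabp4, Krt19, Epcam, Cdh1, Col1a1, Col1a2, Col3a1, Pdpn, Pdgfra, Lum, Wt1, Msln, Upk3b and Lrrn4 were named after their values were seen. The genes and lists were chosen with earlier results of these data known. Alternatives were a replicate block, DESeq2 1.42.0, limma-voom (limma 3.58.1), other scalings and filters, a GC correction, other fold thresholds, and leaving out each sample. On simulated data of 15969 genes for this comparison, edgeR recovered 86 of 100 genes changed by log2 1 and 97 of 100 changed by log2 2, with 3 false calls. The share of genes changed there was far below the 34.2% called in the real data. The count of false calls may therefore not carry over.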

Additional observations from a re-analysis of the deposited data

How the results depend on the processing

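The 8 called angiogenic factor genes were 8 under every tool, scaling, filter and left-out sample, 9 with no fold threshold (Angpt4 added) and 7 at a fold change of 2 (Vegfb lost). Angpt2 had a log2 fold change of -0.019 to 0.28 with single samples left out, the negative value without normoxic replicate 2. The cause was not tested. Over all tested genes, 10168 were called with no fold threshold and 3156 at a fold change of 2. With no fold threshold, 8 related ligands, 8 inhibitors and 5 lipase genes were called, and at a fold change of 2, 5 receptor genes and 2 endothelial markers. Without the filter on low counts 5 related ligands were called. Endothelial markers called numbered 3 with DESeq2 and the replicate block and 3 to 5 with single samples left out, the 3 without hypoxic replicate 1. The labels do not say whether same-numbered samples share a PSC line or day. The correlations of their deviations from the group means were 0.142, 0.139 and 0.038, not all over 0.1, so they were not treated as pairs, although each sample correlated best with its own number, a hint from the data and not from the design. With the replicate block, edgeR called 5572 genes, 5467 of them shared with the 5547 called without it, and 8 of the 10 angiogenic factors. Among the 10 angiogenic factors, Angpt1, Angpt2 and, at 21% O2, Pgf and Vegfc had the lowest counts.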
